A study of Rattus norvegicus with 12 samples.

Results

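Khk, Tkfc, Pklr, Galt, Ugp2, Gys2 and Pygl, which carry fructose, galactose and glucose units into and out of liver glycolysis and glycogen, were followed in the livers of 12 obese rats fed 3 high-sucrose diets. An eighth gene, the galactokinase Galk1, has no probe set with that single symbol in the annotation used here and was not analysed. The members were chosen by symbol: 7 probe sets, 1 for each of the 7 measured genes, of 15310 probe sets that carry exactly 1 gene symbol and stand for 14506 genes. None of the 7 genes passed the test between any diets. Tkfc varied most from liver to liver inside the diets, followed by Pklr, Ugp2 and Khk, and the fructose genes Khk and Tkfc varied together.

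Male Sprague-Dawley rats, labelled Diet-induced obese, took up their diets at 12 weeks of age and were 20 weeks old at the end, after 8 weeks. Protein made up 10% of the energy, as skim milk powder in the dairy diet, as casein (7.1%) with free leucine (2.9%) in the leucine diet and as casein alone in the control diet, and every diet held 4.6 kcal per gram. All 3 diets were rich in fat and sucrose and were eaten freely, so no group shows the level of these genes without a sugar load. Each diet is represented by 4 liver samples, read here as 1 rat each, and gene expression was measured on 1 Affymetrix Rat Gene 1.0 ST array per sample.

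Sucrose is split in the gut into glucose and fructose, and lactose, the sugar of milk, into glucose and galactose. The liver takes up much of the fructose, which ketohexokinase (Khk) phosphorylates without the feedback that restrains glucose use, and the kinase Tkfc later brings the glyceraldehyde made from it into the glycolytic pool. Galactose is phosphorylated by Galk1 and exchanged by Galt for the glucose of UDP-glucose, the same nucleotide sugar, made by Ugp2, from which glycogen synthase (Gys2) builds glycogen. Carbohydrate in the liver is sensed in part by ChREBP (gene Mlxipl), a transcription factor that binds paired E-boxes known as carbohydrate response elements.

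Sequences before a start site are shown for 5 of the genes. Pklr, Khk and Tkfc varied between livers, and Galt and Gys2 stand for the galactose and glycogen arms. Ugp2, which varied more between livers than Khk, is not shown. The sequences are the 250 bases before the start site listed for each gene among the RefSeq promoters in build GRCr8. They run 5′ to 3′ on the gene's own strand, and all 8 genes including Galk1 were found in the promoter table. A listed start need not be the outer end of the gene. By the RefSeq gene bounds the sequences of Pklr and Khk lie inside the gene, those of Tkfc and Galt overlap it, and that of Gys2 lies just outside. Capitals mark matches to 4 motifs that were searched on both strands, over windows from 250 bases before to 50 bases after the start.
Pklr (chr2:176841014-176841263, plus strand): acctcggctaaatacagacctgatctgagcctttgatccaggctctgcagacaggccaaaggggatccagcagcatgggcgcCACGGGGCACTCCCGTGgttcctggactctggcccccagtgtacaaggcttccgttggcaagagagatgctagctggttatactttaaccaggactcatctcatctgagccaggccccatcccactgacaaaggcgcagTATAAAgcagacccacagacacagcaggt
Khk (chr6:31175482-31175731, minus strand): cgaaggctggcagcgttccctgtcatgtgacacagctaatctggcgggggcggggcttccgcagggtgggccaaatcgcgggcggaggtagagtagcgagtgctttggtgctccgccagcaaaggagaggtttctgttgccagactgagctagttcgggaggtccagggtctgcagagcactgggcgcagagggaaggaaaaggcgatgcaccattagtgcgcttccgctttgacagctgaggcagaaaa
Tkfc (chr1:216677658-216677907, minus strand): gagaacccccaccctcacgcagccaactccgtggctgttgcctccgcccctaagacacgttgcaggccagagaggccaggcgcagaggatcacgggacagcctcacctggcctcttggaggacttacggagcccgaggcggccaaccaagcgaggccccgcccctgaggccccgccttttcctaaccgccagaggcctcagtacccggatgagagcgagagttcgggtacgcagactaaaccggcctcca
Galt (chr5:61722650-61722899, plus strand): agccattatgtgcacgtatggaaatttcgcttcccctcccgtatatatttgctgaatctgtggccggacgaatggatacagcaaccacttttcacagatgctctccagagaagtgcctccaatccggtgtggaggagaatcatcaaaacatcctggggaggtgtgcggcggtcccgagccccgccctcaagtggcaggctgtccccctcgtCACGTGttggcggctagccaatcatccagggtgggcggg
Gys2 (chr4:177137237-177137486, minus strand): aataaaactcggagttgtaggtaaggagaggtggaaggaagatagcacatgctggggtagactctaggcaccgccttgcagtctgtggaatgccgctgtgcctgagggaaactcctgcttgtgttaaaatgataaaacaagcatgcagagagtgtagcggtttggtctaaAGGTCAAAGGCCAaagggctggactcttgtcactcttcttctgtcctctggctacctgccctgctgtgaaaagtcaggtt

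The carbohydrate response element was searched as CACGNG followed, 5 bases on, by its reverse complement CNCGTG, and was found in the windows of 0.033% of 33469 RefSeq promoters. Among the 8 genes only Pklr held it, as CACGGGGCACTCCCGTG from position -168 to -152, and Pklr also had a TATAAA box at -29 to -24 (14.2% of all windows). The single E-box CACGTG, present in 6.42% of windows, was found in Galt (-39 to -34) and in Galk1 (-31 to -26). The direct repeat AGGTCA and AGGNCA with 1 base between, a form that nuclear receptors such as HNF4A and PPAR-alpha with RXR can bind, was found in 0.155% of windows and lay in Gys2 from -80 to -68 as AGGTCAAAGGCCA. The windows of Khk, Tkfc, Ugp2 and Pygl held none of the 4 motifs. The Ugp2 window, like that of Khk, lies inside the gene's bounds, and no other start site was searched. The letters of the E-box can lie inside a carbohydrate response element but do not in that of Pklr.

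The arrays are described first. The 13 hepatocyte markers, such as albumin (Alb), were all measured and all brighter than the median probe set, the lowest being Hnf4a, brighter than 97.9% of probe sets. Array medians lay between 4.43 and 4.62 and array SDs between 2.07 and 2.33 on the log2 scale, with the narrowest spread in dairy replicate 3 (2.07) and casein replicate 4 (2.14). Arrays of the same diet were no more alike (median r over probe sets 0.964) than arrays of different diets (0.968). In whole liver RNA, fewer cells of a type and less RNA per cell cannot be told apart. A log2 signal is compared here between livers for 1 gene and not between genes.

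Khk, the enzyme that commits fructose to metabolism, had log2 signals (probe set 10888941) of 10.36, 9.74, 10.13 and 9.25 in the dairy livers, 10.52, 10.17, 9.56 and 9.51 in the leucine livers and 10.85, 10.97, 9.76 and 9.94 in the casein livers, each in the order of replicates 1 to 4. Tkfc, the triokinase, had log2 signals (probe set 10728736) of 10.06, 9.25, 9.85 and 7.61 in the dairy livers, 9.96, 9.26, 7.89 and 8.28 in the leucine livers and 10.34, 10.73, 8.41 and 8.53 in the casein livers. For both genes replicate 1 was high in every diet, dairy replicate 4 was the lowest of the 12 livers, casein replicate 2 was the highest, and the 3 diets overlapped. Pklr, the liver pyruvate kinase that closes glycolysis, had log2 signals (probe set 10816675) of 10.13, 10.15, 9.73 and 9.27 in the dairy livers, 10.37, 9.59, 9.56 and 9.68 in the leucine livers and 10.39, 11.22, 9.54 and 8.81 in the casein livers. Its highest and its lowest liver, replicates 2 and 4, were both casein livers, so the casein range enclosed those of the other 2 diets.

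**Figure D1:**
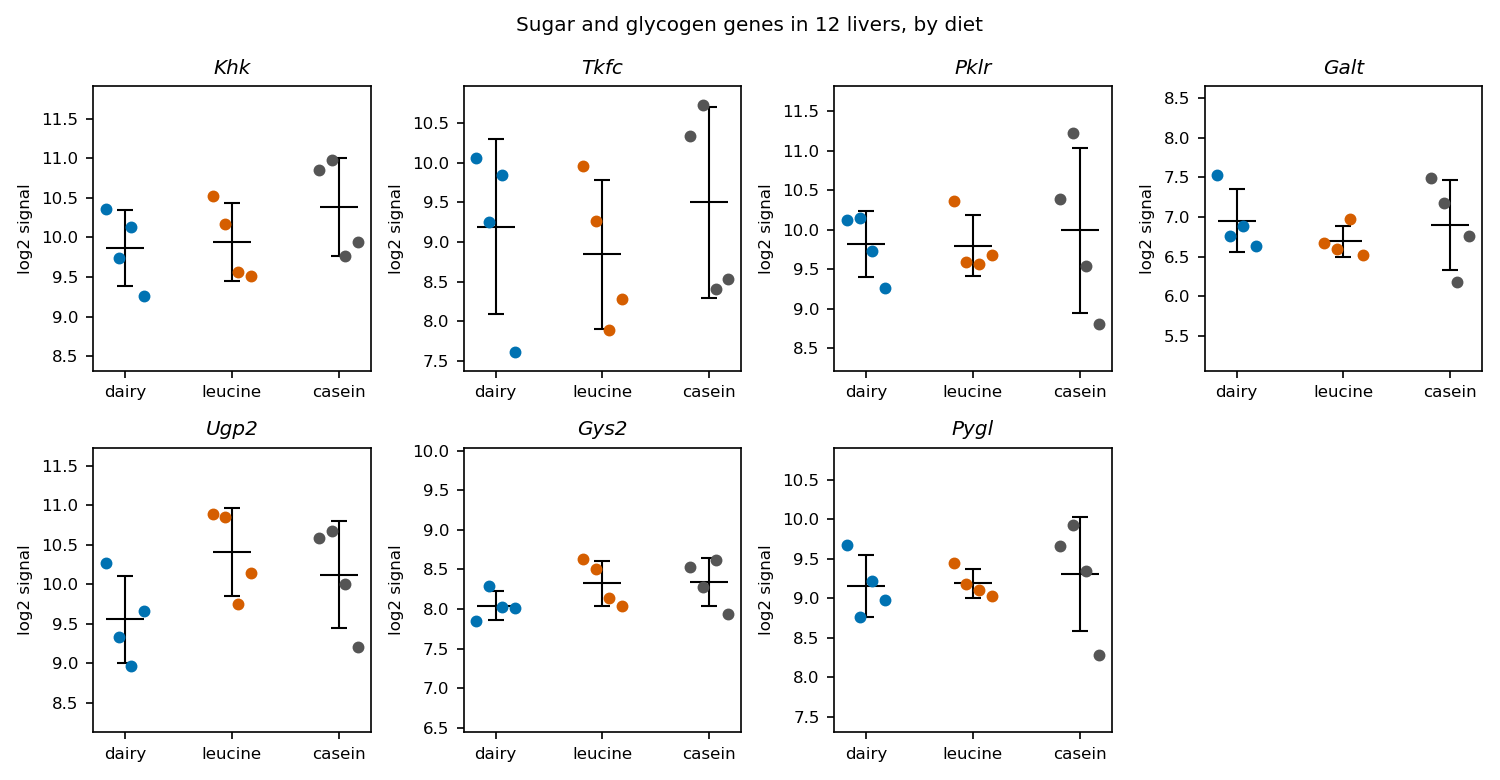
Log2 signal (y axis) of each of the 7 genes in the dairy, leucine and casein livers (x axis), with 1 point per liver in the order of replicates 1 to 4 and a bar for the mean with whiskers of 1 SD. All panels span the same number of log2 units; the points of the 3 diets overlap for every gene, and Tkfc spreads most inside each diet.

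The diet means of the fructose and glycolysis genes followed, from high to low, the order casein, leucine, dairy for Khk and casein, dairy, leucine for Tkfc and Pklr. Khk averaged 9.87 ± 0.482 in dairy livers, 9.94 ± 0.489 in leucine livers and 10.38 ± 0.619 in casein livers (log2 signal, SD, n = 4 per diet). Tkfc averaged 9.19 ± 1.11 in dairy livers, 8.85 ± 0.942 in leucine livers and 9.5006 ± 1.20 in casein livers, and Pklr 9.82 ± 0.414, 9.80 ± 0.382 and 9.99 ± 1.05 in the same order. None of these neighbours in the order differed beyond the spread between livers by limma's moderated test.

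Galt, which exchanges galactose for glucose on UDP, had log2 signals (probe set 10868384) of 7.53, 6.76, 6.88 and 6.63 in the dairy livers, 6.68, 6.60, 6.97 and 6.53 in the leucine livers and 7.49, 7.18, 6.18 and 6.76 in the casein livers. Dairy replicate 1 was the highest of the 12 livers and casein replicate 3 the lowest, and the 4 leucine livers lay close together. Its means were 6.95 ± 0.400 in dairy livers, 6.69 ± 0.196 in leucine livers and 6.90 ± 0.568 in casein livers (log2 signal, SD, n = 4), so that the order was dairy, casein, leucine, with no neighbours apart beyond their spread.

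Ugp2, which makes the UDP-glucose that both Galt and glycogen synthase use, had log2 signals (probe set 10778647) of 10.27, 9.33, 8.96 and 9.66 in the dairy livers, 10.89, 10.85, 9.75 and 10.15 in the leucine livers and 10.59, 10.68, 10.00 and 9.21 in the casein livers. The dairy livers were low apart from replicate 1, and all 4 leucine livers lay above the 3 other dairy livers. The means were 9.56 ± 0.552 in dairy livers, 10.41 ± 0.558 in leucine livers and 10.12 ± 0.676 in casein livers (log2 signal, SD, n = 4). This gave the order leucine, casein, dairy, in which the 2 ends, leucine and dairy, were farthest apart, while neither leucine and casein nor casein and dairy differed beyond their spread.

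Gys2, the liver glycogen synthase, had log2 signals (probe set 10866693) of 7.85, 8.28, 8.02 and 8.02 in the dairy livers, 8.63, 8.51, 8.14 and 8.04 in the leucine livers and 8.53, 8.28, 8.62 and 7.94 in the casein livers. This was the steadiest of the 7 genes, with means of 8.04 ± 0.178 in dairy livers, 8.33 ± 0.284 in leucine livers and 8.34 ± 0.303 in casein livers (SD, n = 4). Pygl, the phosphorylase that releases glucose units from glycogen, had log2 signals (probe set 10890441) of 9.67, 8.76, 9.22 and 8.97 in the dairy livers, 9.44, 9.18, 9.10 and 9.03 in the leucine livers and 9.66, 9.92, 9.34 and 8.29 in the casein livers. Casein replicates 2 and 4 were its highest and lowest livers, and the means of 9.16 ± 0.390 with dairy, 9.19 ± 0.181 with leucine and 9.30 ± 0.718 with casein (SD, n = 4) were close. For both genes the order of the means was casein, leucine, dairy, and no neighbours differed beyond their spread.

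The dairy diet was compared with casein to see what skim milk powder, as a whole, changed in place of casein. None of the 7 genes passed limma's test (0 of 7, against 13 of all 15310 probe sets, 0.0849%), and none had an unadjusted p under 0.05, as 10.9% of all probe sets did. The dairy and casein livers overlapped for all 7, while 4.27% of all probe sets had groups that did not. Of the 7 genes 6 had a lower mean with dairy, as had 53.1% of all probe sets. The median log2 difference of the 7 genes was -0.298, beside -0.0224 over all probe sets. Khk differed by -0.51 ± 0.337 (log2, SE; 95% interval -1.25 to 0.22; limma adjusted p = 0.581), Ugp2 by -0.56 (interval -1.37 to 0.25) and Gys2 by -0.30 (interval -0.71 to 0.11). Tkfc differed by -0.31 with an interval of -1.75 to 1.13, which runs from 0.298 to 2.19 times the casein level. Pklr, Pygl and Galt differed by -0.17, -0.15 and 0.049, and limma adjusted p of the 7 genes ran from 0.566 to 0.963. Without casein replicate 2 the differences of Tkfc, Pklr and Pygl had the other sign (0.10, 0.24 and 0.061), as had those of Tkfc (0.22) and Pklr (0.011) without dairy replicate 4, and that of Galt without casein replicate 3 (-0.19) or dairy replicate 1 (-0.14). With array quality weights the differences were -1.0005 for Khk, -0.94 for Ugp2, -1.21 for Tkfc, -0.69 for Pklr, -0.68 for Pygl and -0.30 for Galt (log2). Unadjusted limma p was 0.00469 for Khk, 0.00834 for Ugp2 and 0.0112 for Pygl, with adjusted p of 0.0536, 0.0681 and 0.0777 in that order. The weights were lowest for casein replicate 4 (0.293) and dairy replicate 3 (0.296) and highest for dairy replicate 2 (2.83). Many more of all probe sets passed with them, as counted with the alternatives below.

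The leucine diet was compared with casein in the same way. None of the 7 genes passed limma's test (0 of 7, with 0 of 15310 probe sets, 0%), and none had an unadjusted limma p under 0.05, as 507 probe sets (3.31%) did. An exact permutation test of 4 livers against 4 has 0.0286 as its smallest two-sided p, which left no probe set able to pass after adjustment, so its count of 0 in the comparisons of single diets carries no information. No gene of the 7 had leucine and casein livers that did not overlap, as 2.44% of all probe sets had, and 6 of the 7 had a lower mean with leucine, as had 56.2%. The widest difference was that of Tkfc, -0.65 ± 0.664 (log2, SE; 95% interval -2.10 to 0.79), followed by Khk at -0.44 ± 0.337 (interval -1.17 to 0.29). Ugp2, at 0.29 (interval -0.52 to 1.10), was the 1 gene of the 7 with a higher mean than with casein, and without casein replicate 4 its difference was -0.011. Galt differed by -0.21, Pklr by -0.19, Pygl by -0.11 and Gys2 by -0.014, and limma adjusted p was 0.999 for all 7. Without casein replicate 2 the differences of Pklr and Pygl had the other sign (0.22 and 0.093), as had that of Pygl without casein replicate 1 (0.0050) and that of Gys2 without casein replicates 1 or 3 or leucine replicates 3 or 4 (0.049 to 0.082). The comparisons of dairy and of leucine with casein share the 4 casein livers, so like signs in both are not separate observations. Casein also supplied less of the energy in the leucine diet than in the control diet, so added leucine and less casein cannot be told apart. With array quality weights the differences from casein were -1.35 for Tkfc, -0.79 for Khk, -0.80 for Pklr, -0.47 for Pygl and -0.45 for Galt (log2; lowest limma adjusted p 0.298, for Khk).

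**Figure D2:**
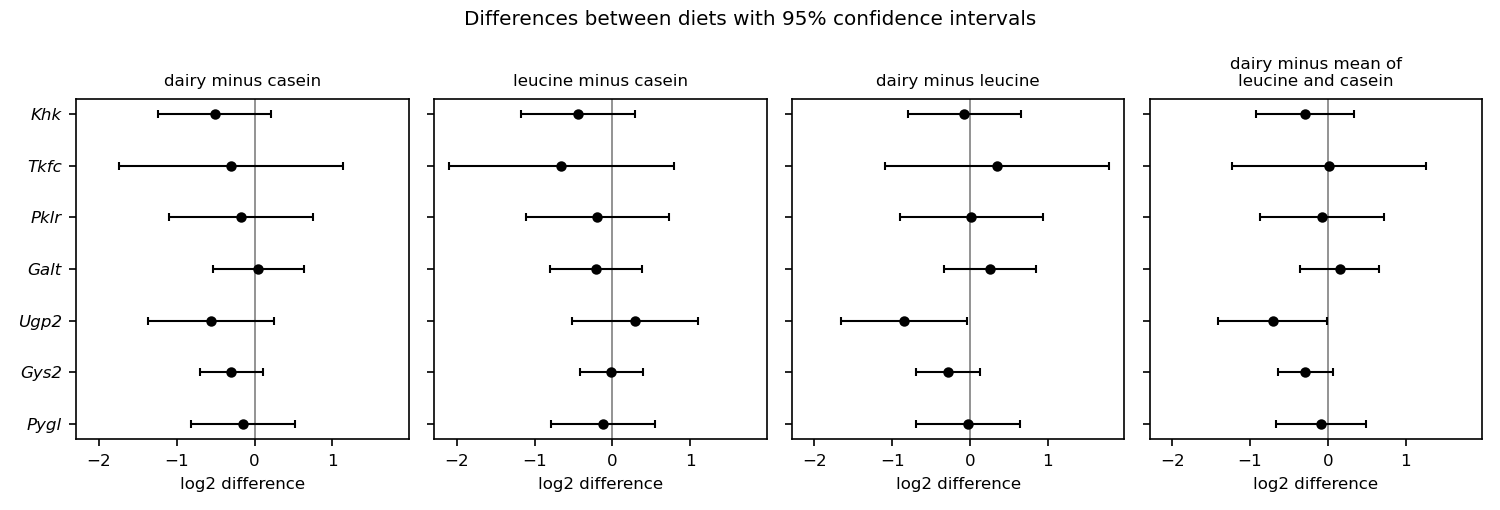
Log2 difference (x axis, points) with its 95% confidence interval (bars) from limma for each of the 7 genes (y axis) in 4 comparisons of diets. Every interval crosses 0 except those of Ugp2 in dairy minus leucine and in dairy minus the mean of the other diets, and neither of these passed after adjustment over all probe sets; the bars of Tkfc are the widest.

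The dairy diet was the only 1 of the 3 that brings lactose through skim milk powder, so it was also set against the leucine diet and against the mean of the other 2 diets. Ugp2 had a lower mean in dairy livers than in leucine livers by a log2 difference of -0.85 ± 0.374 (SE; 95% interval -1.66 to -0.0415), a level 0.554 times that with leucine, and was the 1 gene of the 7 with an unadjusted limma p under 0.05 (0.0409). It did not pass over all probe sets (limma adjusted p = 0.708), and 1064 probe sets (6.95%) had an unadjusted p under 0.05, 3.65% with a lower mean in dairy livers. The exact two-sided permutation test gave p = 0.114 for it, with n = 4 per diet, where 0.0286 is the smallest p possible. Without single arrays the difference ran from -1.09 (dairy replicate 1 left out) to -0.66 (dairy replicate 3 left out). Galt, the enzyme that acts on galactose itself, differed by 0.26 ± 0.271 (interval -0.33 to 0.85; limma adjusted p = 0.85). None of the 7 genes passed in this comparison, nor did any of the 15310 probe sets (0%), by limma. Of the 7 genes 4 had a lower mean with dairy than with leucine (48% of all probe sets), and the groups overlapped for all 7 (5.09% of all probe sets did not).

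Against the mean of the leucine and casein livers, Ugp2 differed by -0.71 ± 0.324 (log2, SE; limma unadjusted p = 0.0488, adjusted p = 0.433). An unadjusted p under 0.05 was found in 11.5% of all probe sets in this comparison, 6.49% with a lower mean, and 0 of 15310 passed after adjustment (0%). Of the 7 genes 5 had a lower mean with dairy, as had 50.5% of all probe sets. Gys2 differed by -0.29 ± 0.162, Galt by 0.15 ± 0.235 and Tkfc by 0.02 ± 0.575 (log2, SE). The Galt difference was -0.04 without dairy replicate 1, and that of Tkfc lay between -0.27 and -0.075 without any 1 of dairy replicates 1 and 3, leucine replicates 3 and 4 and casein replicates 3 and 4. A moderated F test over the 3 diets passed none of the 7 genes (lowest limma adjusted p 0.717, for Ugp2) and 5 of 15310 probe sets (0.0327%). At an unadjusted p under 0.05 it called 0 of the 7 and 7.76% of all probe sets.

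The SD within diets was larger than the span of the diet means for Tkfc, Pklr, Galt, Pygl and, narrowly, Khk. For Ugp2 and Gys2 the span was larger (0.853 and 0.298 log2 units, beside SDs of 0.598 and 0.261). The SD of Tkfc within diets was 1.09 log2 units, larger than that of 98.2% of all probe sets, while its diet means spanned 0.654 log2 units. Between its lowest liver (dairy replicate 4) and its highest (casein replicate 2) the signal of Tkfc differed 8.71-fold. Pklr, Ugp2 and Khk had SDs of 0.686, 0.598 and 0.534, larger than those of 93.5%, 90.6% and 87.0% of probe sets, and ranges of 5.34-fold, 3.81-fold and 3.29-fold. Among the 7655 probe sets brighter than the median these shares were 97.0% for Tkfc, 89.3% for Pklr, 84.6% for Ugp2 and 78.6% for Khk. Pygl (0.483) and Galt (0.417) came next, and Gys2, with an SD of 0.261 and a 1.71-fold range, varied less than the median probe set (0.295). The lowest signals of Pklr and Pygl (casein replicate 4) and of Ugp2 (dairy replicate 3) lay on the 2 arrays of narrowest spread. Whether array spread has a part in the ranges of these genes was not tested.

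The fructose genes varied together. Over the 12 livers the log2 signals of Khk and Tkfc had Pearson's r = 0.939 and Spearman's rho = 0.958, and r = 0.980 once the diet means were removed. Without the 2 livers farthest from the median of Khk, r was 0.910, and without the 2 arrays of narrowest spread it was 0.959. Of the 14505 other genes on the array 99.9% had a lower r with Khk than Tkfc had. These correlations describe 12 arrays that also share differences in overall spread, and they carry no p because the genes were picked with earlier results of these data known.

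Pklr had r = 0.804 with Tkfc (rho = 0.825) and r = 0.753 with Khk (rho = 0.713). Without the 2 livers farthest from the median of Pklr these were 0.838 with Tkfc and 0.805 with Khk, and its r with Khk was 0.508 without the 2 livers farthest from the median of Khk. Pygl had r = 0.809 with Pklr (rho = 0.678), which became 0.515 without the 2 livers farthest from the median of Pklr. Of the 21 pairs that the 7 genes form, 20 had r above 0, with a median of 0.571. The exception was Galt with Gys2 (r = -0.282, rho = -0.329). Beside these pairs, the median r of a member with all genes lay between -0.0868 (Ugp2) and 0.0144 (Tkfc). Not every pair stood out: 67.6% of genes had a lower r with Galt than Ugp2 had, and 74.7% had a lower r with Khk than Gys2 had. Gys2 was also the gene least like the fructose genes, with r = 0.257 against Tkfc and 0.362 against Khk.

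**Figure D3:**
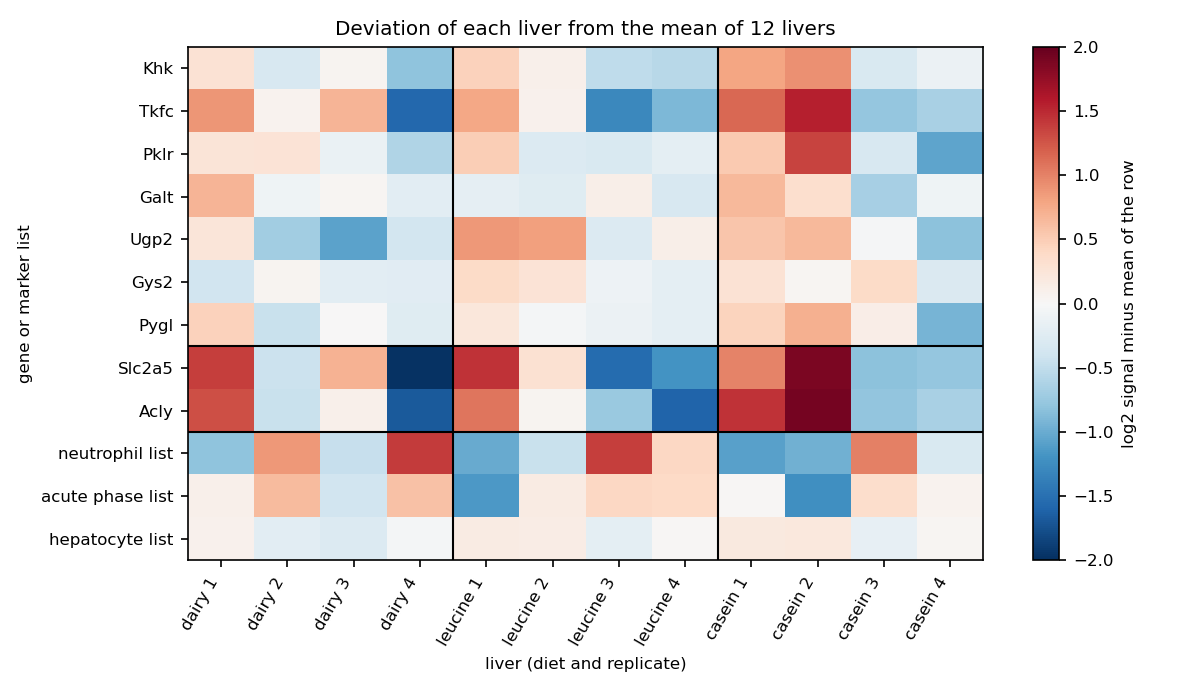
Log2 signal of each liver minus the mean over all 12 livers (colour, blue below and red above) for the 7 genes, for Slc2a5 and Acly, and for the mean levels of the neutrophil, acute phase and hepatocyte marker lists (rows), with livers in columns by diet and replicate. Khk, Tkfc, Slc2a5 and Acly are red in dairy 1, leucine 1, casein 1 and casein 2 and blue in dairy 4, leucine 3, leucine 4 and casein 3, where the neutrophil row is red. In casein 4 these genes lie below the mean of their rows, and so does the neutrophil level.

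The gene of the whole array most like Tkfc was Slc2a5, which encodes the fructose transporter GLUT5 (r = 0.976, rho = 0.972 over 12 livers; 0.959 without the 2 livers farthest from the median of Tkfc). Slc2a5 had log2 signals of 8.25, 6.44, 7.55 and 4.89 in the dairy livers, 8.31, 7.17, 5.32 and 5.66 in the leucine livers and 7.86, 8.75, 6.04 and 6.09 in the casein livers. It spanned from dairy replicate 4 to casein replicate 2, the same 2 livers that bound Khk and Tkfc. The next most like Tkfc were Acly, the ATP citrate lyase that supplies acetyl-CoA for lipid synthesis (r = 0.943), and the actin nucleator Cobl (r = 0.941). Acly was also among the 3 genes most like Khk (r = 0.965), after the mitochondrial membrane protein gene Tmem14c (r = 0.981) and before the histone demethylase gene Kdm1b (r = 0.958). Only 0.179% of genes had r above 0.9 with Tkfc and 0.558% with Khk.

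The 3 genes most like Pklr were Or2t44b, annotated as an olfactory receptor gene (r = 0.963), the ATP synthase subunit Atp5pb (r = 0.906) and Meiob (r = 0.899). For Galt they were the carbonyl reductase Cbr3 (0.897), Or9s13 (0.892) and Hdhd3 (0.879), and Galt had no gene with r above 0.9. Ugp2 was most like the trafficking genes Vps41 (0.965) and Hook3 (0.963) and the receptor gene Calcrl (0.958). Gys2 was most like the deubiquitinase Usp48 (0.927), Ccdc62 (0.883) and the adaptor Gab1 (0.869). Pygl was most like Ndufs6-ps1 (0.947), the amino acid sensing kinase gene Eif2ak4 (0.942) and Mtpn (0.939). Ndufs6-ps1 is named as a pseudogene, so its value is uncertain because its probes may read the parent gene. Or2t44b, Meiob, Cbr3 and Ccdc62 were dim, below the median probe set (5.33) in every liver, so their likeness is uncertain too. Under each of 3 other measures of likeness 2 of the 3 genes named for Tkfc stayed in its top 3, while for Galt, Ugp2 and Pygl at least 1 of those measures kept 0 of 3. For Khk, Pklr and Gys2 each of those measures kept 1 or 2 of 3.

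Neutrophil markers moved opposite to the fructose genes from liver to liver. Of all the marker lists, theirs had the r farthest from 0 with Khk and with Tkfc. The mean log2 level of the 11 measured of 12 neutrophil markers was 3.73, 5.40, 4.08 and 5.93 in the dairy livers, 3.53, 4.09, 5.92 and 4.95 in the leucine livers and 3.45, 3.57, 5.54 and 4.23 in the casein livers. In falling order of this level the livers were replicates 4, 2, 3 and 1 with dairy, which was the rising order of Khk there. With leucine and with casein that order was replicates 3, 4, 2 and 1, while Khk rose in the order 4, 3, 2 and 1 with leucine and 3, 4, 1 and 2 with casein. Over the 12 livers its r was -0.902 with Khk (rho = -0.923) and -0.877 with Tkfc (rho = -0.930), and -0.907 and -0.893 with the diet means removed. Only 0.269% of 14494 genes had a lower r with the neutrophil level than Khk, and 0.586% than Tkfc. For Pklr, Galt, Pygl and Ugp2 r ran from -0.550 to -0.491, and for Gys2 it was -0.163.

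All 11 neutrophil genes had r below 0 with Khk, with Camp (-0.479) and Ngp (-0.534) nearest to 0. Of the 11, 3 (S100a9, Ncf1 and Csf3r) were brighter than the median probe set. S100a9, which encodes a granulocyte calcium-binding protein, spanned log2 signals of 3.304 to 8.351 over the 12 livers. The level of the list ranged from 3.73 to 5.93 in dairy livers, 3.53 to 5.92 in leucine livers and 3.45 to 5.54 in casein livers, so each diet held livers at both ends. Acute phase proteins, 13 of 14 measured, ranged from 11.93 to 12.94 in dairy livers, 11.16 to 12.72 in leucine livers and 11.07 to 12.66 in casein livers and had r = -0.772 with Khk and -0.719 with Tkfc. The hepatocyte list ranged from 12.05 to 12.41 in dairy livers, 12.13 to 12.49 in leucine livers and 12.17 to 12.54 in casein livers, with r = 0.820 against Ugp2 and 0.666 against Khk. The 7 adipocyte markers, 1 of them brighter than the median probe set, ranged from 5.05 to 5.43 in dairy livers, 4.92 to 5.54 in leucine livers and 4.87 to 5.36 in casein livers. Their r was -0.808 with Khk, -0.804 with Tkfc, -0.740 with Ugp2 and -0.707 with Pklr. Endothelial markers, 6 of 9 measured, ranged from 6.90 to 7.59 in dairy livers, 6.98 to 7.53 in leucine livers and 7.13 to 7.39 in casein livers, with r = 0.858 against Ugp2. For the marker lists not described here, r with Khk ran from -0.515 (erythroid cells) to 0.121 (pancreas).

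**Figure D4:**
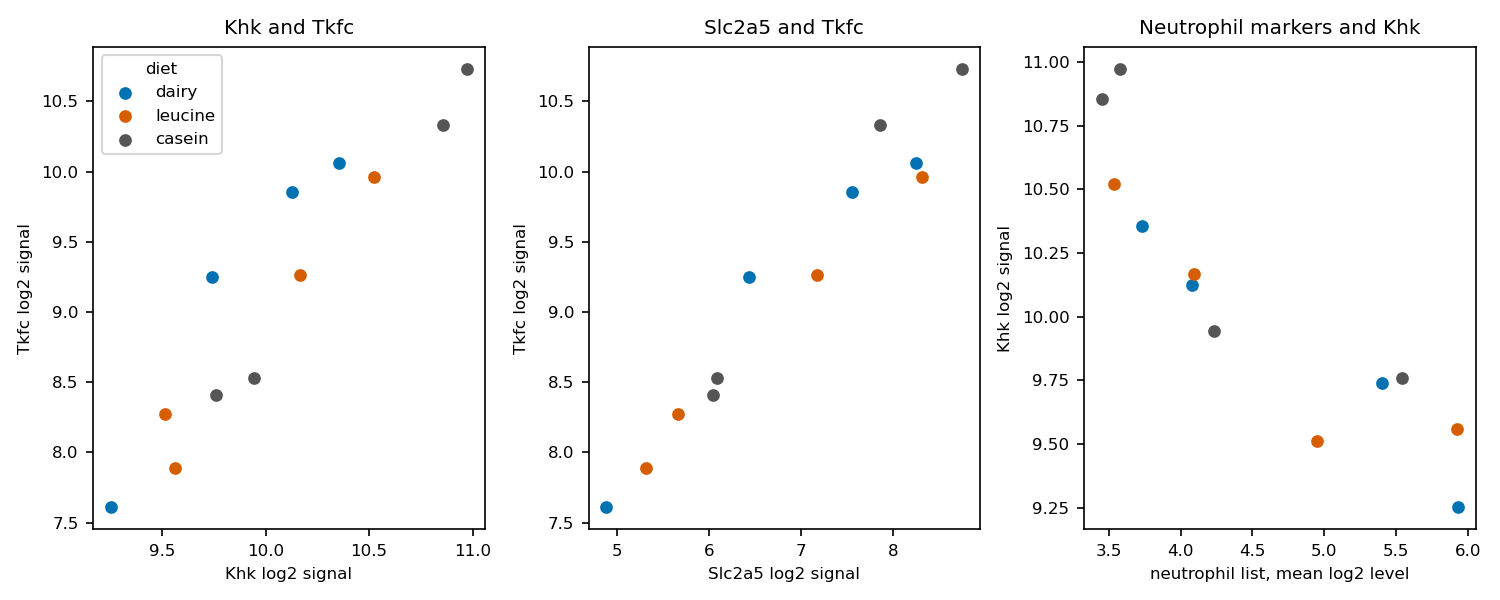
Log2 signals of Khk (x) and Tkfc (y), of Slc2a5 (x) and Tkfc (y), and the mean log2 level of neutrophil markers (x) with the log2 signal of Khk (y), 1 point per liver, coloured by diet. In the first 2 panels the points rise (r = 0.939 and 0.976) and in the third they fall (r = -0.902), with livers of all 3 diets spread over each range.

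With the neutrophil level as a covariate, an alternative chosen after the data were seen, the standard error of the dairy minus casein difference became 0.320 for Tkfc and 0.182 for Khk, against 0.664 and 0.337 without it. The difference itself became -0.24 for Khk (limma adjusted p = 0.568) and 0.25 for Tkfc, which has the other sign. No gene of the 7 passed with this covariate in any comparison. Whether the level of any of these marker lists has a part in the level of the 7 genes was not tested.

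The other genes of these pathways were read as 5 lists, of which 53 genes beside the 7 were measured. None of the 53 passed limma's test in any of the 4 comparisons. Between dairy and casein 5 of the 53 (9.43%) had an unadjusted p under 0.05, all with a lower mean in dairy livers, beside 10.9% of all probe sets in either direction and 6.32% with a lower mean. Of the 53 genes 42 had a lower and 11 a higher mean with dairy, where 53.1% of all probe sets had a lower mean. The median log2 difference of the 53 was -0.262, beside -0.0224 over all probe sets. Between leucine and casein 44 of the 53 had a lower and 9 a higher mean with leucine, where 56.2% of all probe sets had a lower mean. The median was -0.201 beside -0.0288. At an unadjusted limma p under 0.05, 2 of the 53 (3.77%) had a lower mean, beside 1.92% of all probe sets. Genes such as Slc2a5 and Acly varied together with Tkfc, so these counts, and those by list below, are not of separate observations. The shares of lower means also stand beside the list counts, and were not computed for bright probe sets alone.

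**Figure D5:**
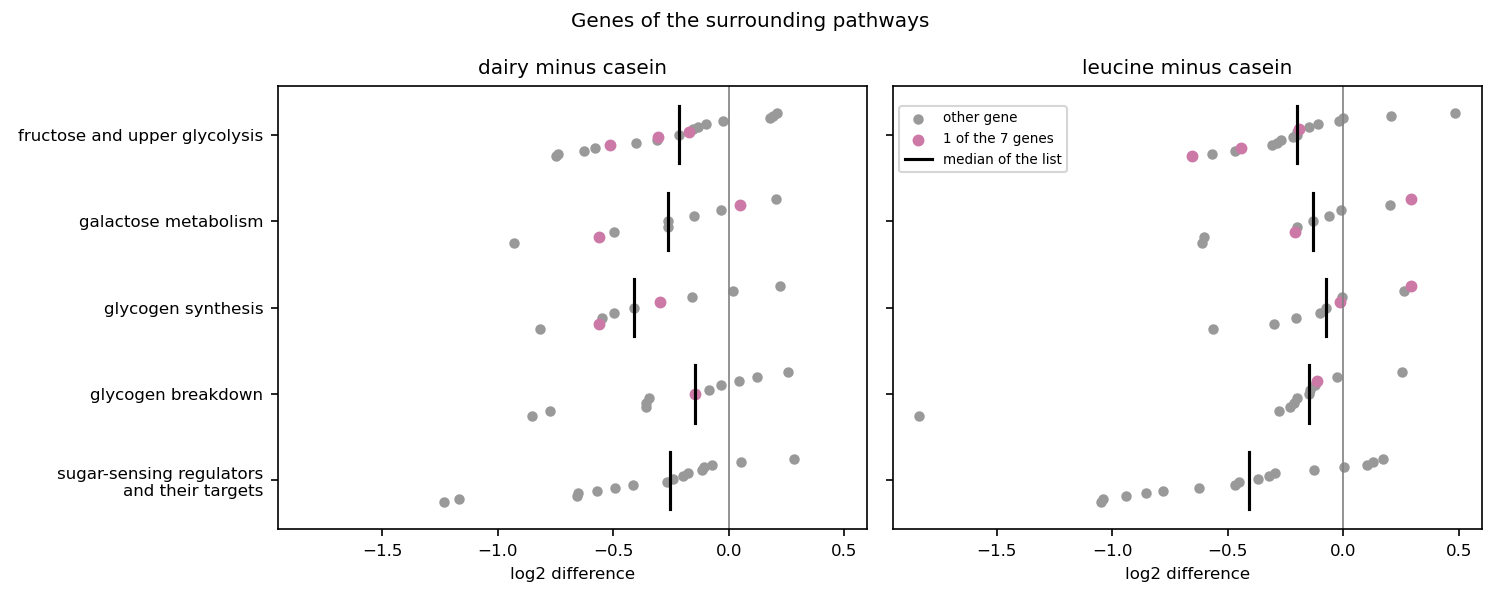
Log2 difference (x axis) of each measured gene of 5 pathway lists (y axis) in dairy minus casein (left) and leucine minus casein (right), with the 7 genes in pink, other genes in grey and a bar at the median of each list. The list medians lie between -0.410 and -0.0755, and none of the genes shown passed limma's test.

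In the list of fructose and upper glycolysis genes, 14 of 17 measured had a lower mean with dairy than with casein, 2 of them at an unadjusted p under 0.05, and the list's median log2 difference was -0.215. These 2 were Pgk1, the phosphoglycerate kinase (9.23, 9.15, 8.82 and 9.40 in the dairy livers, 9.43, 9.68, 9.27 and 8.84 in the leucine livers and 10.34, 9.82, 9.40 and 9.55 in the casein livers), and Sord, the sorbitol dehydrogenase that makes fructose. Pgk1 differed by -0.63 ± 0.231 (log2, SE; limma adjusted p = 0.365) and Sord by -0.75 ± 0.307 (adjusted p = 0.419). The hexose transporter Slc2a2 differed by -0.74 ± 0.417 and Gapdh by -0.31 ± 0.177. With leucine against casein 15 of the 17 had a lower mean, 0 at an unadjusted p under 0.05.

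In the list of galactose genes, 7 of 9 had a lower mean with dairy than with casein (median -0.262), 1 of them at an unadjusted p under 0.05. This was Galk2, a kinase of N-acetylgalactosamine related to galactokinase. Its log2 signals were 7.11, 6.82, 6.14 and 7.13 in the dairy livers, 7.26, 7.28, 6.96 and 7.01 in the leucine livers and 7.80, 7.84, 7.41 and 7.86 in the casein livers. All 4 dairy livers, like all 4 leucine livers, lay below the 4 casein livers. Such a separation was found for 4.27% of all probe sets between dairy and casein and for 2.44% between leucine and casein. Galk2 differed by -0.93 ± 0.212 between dairy and casein (log2, SE; limma unadjusted p = 0.000821, adjusted p = 0.148). Galm, the mutarotase that readies galactose for its kinase, differed by -0.50 ± 0.354 and the phosphoglucomutase Pgm2 by -0.26 ± 0.204. With leucine against casein 7 of the 9 also had a lower mean (median -0.13). Of these, 2 had an unadjusted limma p under 0.05, Galk2 and Slc35a2, where 1.92% of all probe sets had such a p with a lower mean. Galk2 differed by -0.60 ± 0.212 there (limma unadjusted p = 0.0144, adjusted p = 0.999).

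Of the glycogen synthesis genes 7 of 9 had a lower mean with dairy than with casein, 1 at an unadjusted p under 0.05, with a median log2 difference of -0.41. This 1 gene was Gsk3b, a kinase that inhibits glycogen synthase, with log2 signals of 7.70, 6.93, 6.90 and 7.53 in the dairy livers, 8.41, 8.04, 7.48 and 7.58 in the leucine livers and 8.42, 8.19, 7.79 and 7.93 in the casein livers and a difference of -0.82 (SE 0.2498; limma adjusted p = 0.305). The phosphatase subunit Ppp1cb differed by -0.50 ± 0.241 and the other kinase, Gsk3a, by 0.22 ± 0.139. Of the glycogen breakdown genes 8 of 11 had a lower mean (median -0.146), 1 at an unadjusted p under 0.05. This was Phkb, a regulatory subunit of the kinase that activates Pygl, with log2 signals of 6.68, 6.70, 5.96 and 6.39 in the dairy livers, 7.13, 7.39, 6.84 and 6.96 in the leucine livers and 7.52, 7.28, 7.15 and 6.87 in the casein livers. All 4 dairy livers lay below all the leucine and casein livers, where 4.27% of all probe sets did not overlap between dairy and casein and 5.09% between dairy and leucine. The difference from casein was -0.77 ± 0.201 (log2, SE; limma unadjusted p = 0.00217, adjusted p = 0.219). The catalytic subunit Phkg2 differed by -0.36 ± 0.218, Epm2a by -0.35 ± 0.324 and Nhlrc1 by 0.25 ± 0.184. With leucine against casein 7 of the 9 synthesis genes had a lower mean (median -0.0755), as had 10 of the 11 breakdown genes (median -0.151). In both lists 0 had an unadjusted p under 0.05 there.

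Among the sugar-sensing regulators and their targets 14 of 16 measured genes had a lower mean with dairy than with casein and 12 of 16 with leucine than with casein, with medians of -0.253 and -0.41, and 0 had an unadjusted p under 0.05 in either. Mlxipl itself differed by -0.27 ± 0.339 between dairy and casein and by -0.29 ± 0.339 between leucine and casein (log2, SE). The 4 with the smallest p with dairy were the liver X receptor Nr1h3 (-0.42 ± 0.235), the malic enzyme Me1 (-1.23 ± 0.761), the glycerol phosphate dehydrogenase Gpd1 (-0.65 ± 0.487) and the acetyl-CoA carboxylase Acaca (-0.49 ± 0.425), with limma adjusted p from 0.532 to 0.70.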

How the data were processed

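Each liver sample has 1 Affymetrix array. The deposited values are log2 signals per probe set. The submitters' processing notes name Affymetrix Expression Console; version, summarisation, normalization and build are each not given in the sources used here. Spreads of the columns differ, so normalization left differences between arrays, and a log2 difference understates changes near the background. Precision is limited by how many arrays there are.

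Samples were grouped by the diet in their titles. Gene symbols came from GEO's platform annotation (15310 with 1 symbol, 323 with several, 13581 not listed); the RefSeq table held 15279 of their Entrez IDs under the same symbol. The deposited log2 values were fitted with limma 3.58.1 in R 4.3.3 (3 group means, 12 arrays, eBayes, 9 residual and 3.45 prior degrees of freedom), with two-sided tests and Benjamini-Hochberg adjustment over 15310 probe sets at a threshold of 0.05. limma's fit was tested on simulated data. Each gene has 1 probe set in a list, the brightest. All 8 member genes were to be named, with the 3 genes of highest Pearson r for each and, in each pathway list, those past the threshold or else the 4 of smallest p in dairy minus casein; Mlxipl and the neutrophil genes were added after their values were seen. The members and lists were chosen with earlier results of these data known. Nothing states that samples are separate rats, and p-values set a difference between diets against the spread between these samples within diets.

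Alternatives were quantile normalization, median centring, all probe sets, leaving out the dimmest 25%, trend and robust eBayes, array weights, only the arrays compared, single arrays and the 2 narrowest arrays left out, a replicate block, acute phase and neutrophil covariates, and an exact permutation test. No member had a second probe set to try.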

Additional observations from a re-analysis of the deposited data

Results flagged for a closer look

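Pklr in leucine replicate 1 stood at a log2 signal of 10.37, apart from 9.59, 9.56 and 9.68 in the other 3 leucine livers. Its gap to the nearest of them was 0.851 of the range of the 4, above Dixon's critical value for 4 samples. It was the 1 of 21 groups of 4 values, 7 genes in 3 diets, that stood out in this way, and chance gives about 5% of such groups.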

How the results depend on the processing

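In none of 24 alternatives did any of the 7 genes pass, and the lowest limma adjusted p was 0.0536, for Khk in dairy minus casein with array quality weights, with which 1182 of all probe sets passed in place of 13. Of 329 recomputed differences that kept all arrays or left out the 2 narrowest, 307 had the same direction. The other 22 log2 differences are given next, and the cause of their change of sign was not tested. In dairy minus casein, Tkfc was 0.24, Pklr 0.12 and Pygl 0.028 with the acute phase covariate, Tkfc 0.25 and Pklr 0.032 with the neutrophil covariate, and Galt -0.30 with array weights. In leucine minus casein, Gys2 was 0.014 with median centring and Ugp2 -0.063 with array weights and -0.011 without the 2 narrowest arrays. In dairy minus leucine, Pygl was 0.016 after quantile normalization and Pklr -0.037 after median centring. There the acute phase covariate gave 0.10 for Khk and 0.081 for Pygl, and the neutrophil covariate 0.0045 and 0.0046. In dairy minus the mean of the others, Tkfc was -0.022 with median centring, -0.53 with array weights and -0.36 without the narrowest arrays, Galt -0.077 with array weights, and Pklr 0.17 and Pygl 0.054 with the acute phase and Pklr 0.053 with the neutrophil covariate.

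With single arrays left out, 298 of 336 differences had the same direction (lowest limma adjusted p 0.16). Those that did not had these ranges. In dairy minus casein: Tkfc -0.67 to 0.22, Pklr -0.57 to 0.24, Galt -0.19 to 0.25 and Pygl -0.48 to 0.061. In leucine minus casein: Pklr -0.59 to 0.22, Ugp2 -0.011 to 0.51, Gys2 -0.15 to 0.082 and Pygl -0.45 to 0.093. In dairy minus leucine: Khk -0.23 to 0.13, Pklr -0.090 to 0.21 and Pygl -0.20 to 0.099. In dairy minus the mean of the others: Tkfc -0.27 to 0.55, Pklr -0.27 to 0.13, Galt -0.040 to 0.26 and Pygl -0.26 to 0.042. The count of all probe sets past the threshold in dairy minus casein was 237 without casein replicate 4, 3 without casein replicate 1 or dairy replicate 1 and 6 without casein replicate 2. It was 22 after quantile normalization, 42 with all probe sets, 8 with trend and robust eBayes, 6 with only the compared arrays, 164 without the 2 narrowest arrays and 30 with the neutrophil covariate. Over the 3 diets it was 5, with 23 without casein replicate 4, 0 without any 1 of casein replicates 1, 2 and 3, 0 after quantile normalization, 12 with all probe sets and 418 with array weights. In dairy minus the mean of the others it was 0, with 740 under array weights and 28 without casein replicate 4.

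Over the 3 diets the replicate numbers did not pair the samples throughout: 7 of 12 same-numbered pairs correlated above 0.1 and 2 correlated best with their own number. The replicate 1 arrays correlated at 0.502 (dairy and casein), 0.375 (leucine and casein) and 0.590 (dairy and leucine). Whether some same-numbered samples share a batch was not tested. Between leucine and casein all 4 pairs were above 0.1 (0.208 to 0.532), and with the replicate block 0 of the 7 genes and 0 of all probe sets passed there. With the replicate block 0 of the 7 genes passed and 19 of all probe sets did in dairy minus casein.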

Other observations

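Slc35a2, the transporter that carries UDP-galactose into the Golgi, was chosen after its values were seen because it had the smallest p of the galactose list in dairy minus leucine. Its log2 signals were 7.17, 7.58, 7.22 and 7.21 in the dairy livers, 5.82, 6.80, 6.81 and 6.47 in the leucine livers and 6.92, 7.10, 7.25 and 7.08 in the casein livers. All 4 leucine livers lay below all the dairy and casein livers, where 5.09% of all probe sets did not overlap between dairy and leucine and 2.44% between leucine and casein. The difference was 0.82 ± 0.208 between dairy and leucine and -0.61 ± 0.208 between leucine and casein (log2, SE; limma unadjusted p = 0.00184 and 0.0117, adjusted p = 0.604 and 0.999).

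G6pc1, the phosphatase that ends both glycogen breakdown and gluconeogenesis by releasing free glucose, was likewise chosen after its values were seen. Its log2 signals were 10.91, 8.54, 9.54 and 7.16 in the dairy livers, 12.54, 7.40, 4.83 and 7.45 in the leucine livers and 10.88, 11.79, 7.09 and 9.80 in the casein livers. Leucine replicates 1 and 3 were its highest and lowest livers of the 12. It differed by -0.85 ± 1.44 between dairy and casein and by -1.84 ± 1.44 between leucine and casein (log2, SE; limma adjusted p = 0.857 and 0.999).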
